A study of Mus musculus with 6 samples.

Results

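The genes described here are the core genes of transforming growth factor β (TGF-β) signalling in the mouse prostate: 3 ligands (Tgfb1, Tgfb2, Tgfb3), the latent binding protein Ltbp1, 3 receptors (Tgfbr1, Tgfbr2, Tgfbr3) and 3 Smads (Smad2, Smad3, Smad7). They were taken by symbol from the platform annotation, as a set chosen with earlier results of these data known, and make up 10 of 19938 genes that could be followed on the array. Each of the 10 was represented by a single probe set, so no choice among probe sets entered their values. The study set 3 AR3 transgenic mice against 3 wild-type littermates, all 4 weeks old, with 1 array per prostate. AR3 is a splice form of the androgen receptor that lacks the ligand-binding domain. The series' labels call the transgenic animals only AR3 transgenic or AR3Tg and do not name the promoter that drives the transgene, the number of founder lines or the strain. Whole dissected prostates were used, so the epithelium and the stroma were measured together.

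TGF-β ligands are secreted in a latent complex, in which the propeptide is disulfide-bonded to a latent binding protein that anchors it in the extracellular matrix. Once released, the ligand brings together the type II receptor Tgfbr2 and the type I receptor Tgfbr1, which phosphorylates Smad2 and Smad3. These then enter the nucleus with the common partner Smad4, while Smad7 is induced by the pathway and limits it. In the prostate TGF-β is known as a growth-restraining signal for the epithelium and as a regulator of stromal smooth muscle and fibroblasts, and androgen is known to hold TGF-β signalling down in the adult gland.

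None of the 10 genes passed the threshold of the limma fit, an adjusted p under 0.05 over 28944 probe sets, against 1.64% of all genes. At an unadjusted p under 0.05 there were 2, Tgfbr2 and Ltbp1, both higher in transgenic prostates, where 6.91% of all genes were higher at that p and 5.27% lower. Log2 changes, transgenic minus wild-type, ran from −0.002 to 0.24, and their median was 0.11 against 0.01 over all genes. With 1 array left out the median of the 10 ran from 0.073 (without transgenic replicate 2) to 0.20 (without transgenic replicate 1), with 0.18 without wild-type replicate 2, and with median centring it was 0.074. Of the 10 changes 9 lay above 0, that of Tgfb1 by only 0.003, and Tgfbr1 lay at −0.002, while 53.9% of all genes lay above 0. In 4 of the 10 genes, Tgfb2, Ltbp1, Tgfbr2 and Smad7, all 3 transgenic values lay above all 3 wild-type values, an arrangement that 10.5% of all genes showed in this direction. No member lay lower without overlap, an arrangement found in 8.61% of all genes. All 10 lay above background on every array, Tgfb3 and Ltbp1 by the least. Background was taken from the 95th percentile of olfactory receptor probe sets on each array (66.9 to 91.9). The lowest single value was 1.26 times the highest background level for Tgfb3 and 1.36 times for Ltbp1.

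**Figure D1:**
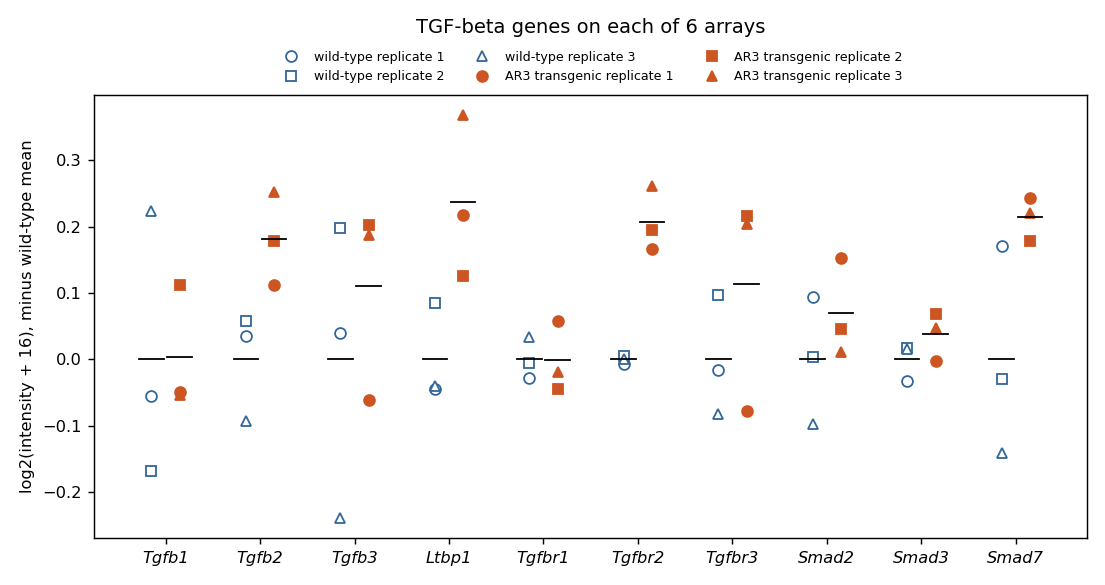
Level of each TGF-β gene on each array as log2(intensity + 16) minus the mean of the 3 wild-type arrays, with open blue symbols for wild-type and filled orange symbols for AR3 transgenic prostates, 1 symbol shape per replicate number and a black bar at each group's mean. The groups lie apart for Tgfb2, Ltbp1, Tgfbr2 and Smad7, with mean differences of 0.18 to 0.24, and overlap for the other 6 genes.

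The DNA just upstream of the start sites is shown for the ligands Tgfb1 and Tgfb2, which differ most clearly in whether the genotypes overlap, and for Ltbp1 and Tgfbr2, the 2 genes with an unadjusted p under 0.05. Sequences are the 250 bases before a RefSeq start site in build GRCm38.p6, read 5′ to 3′ along the gene's strand. Windows were searched for 6 of the 10 genes, with 8 start sites among them. The start sites of Tgfb3, Tgfbr3, Smad2 and Smad7 were not searched. Capitals mark the motifs searched on both strands: the Smad element CAGACA, the AP-1 site TGANTCA, the cyclic AMP response element TGACGTCA, the GC box GGGCGG and the androgen receptor motif AGAACA. These motifs do not overlap each other in the windows shown.
Tgfb1, chr7:25686752-25687001, plus strand: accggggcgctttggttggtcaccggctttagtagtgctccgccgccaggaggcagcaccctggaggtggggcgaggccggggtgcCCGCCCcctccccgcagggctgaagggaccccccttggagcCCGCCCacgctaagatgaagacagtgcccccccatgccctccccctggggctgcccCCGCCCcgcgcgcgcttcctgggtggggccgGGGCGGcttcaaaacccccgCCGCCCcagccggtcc
Tgfb2, chr1:186705990-186706239, minus strand: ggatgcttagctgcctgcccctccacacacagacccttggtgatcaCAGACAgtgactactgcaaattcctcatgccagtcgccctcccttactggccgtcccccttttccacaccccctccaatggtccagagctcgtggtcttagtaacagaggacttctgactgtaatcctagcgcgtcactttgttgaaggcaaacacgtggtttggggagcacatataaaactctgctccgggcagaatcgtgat
Ltbp1, upstream start, chr17:75005279-75005528, plus strand: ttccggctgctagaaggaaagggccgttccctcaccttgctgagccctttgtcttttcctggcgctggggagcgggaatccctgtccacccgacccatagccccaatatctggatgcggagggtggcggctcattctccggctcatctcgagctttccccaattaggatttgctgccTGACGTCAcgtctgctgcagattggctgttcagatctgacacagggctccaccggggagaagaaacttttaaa
Ltbp1, downstream start, chr17:75178531-75178780, plus strand: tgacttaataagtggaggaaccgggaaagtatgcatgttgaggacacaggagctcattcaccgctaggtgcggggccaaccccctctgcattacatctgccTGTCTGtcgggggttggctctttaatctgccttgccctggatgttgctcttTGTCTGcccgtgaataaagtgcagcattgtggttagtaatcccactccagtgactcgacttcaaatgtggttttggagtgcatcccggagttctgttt
Tgfbr2, chr9:116175364-116175613, minus strand: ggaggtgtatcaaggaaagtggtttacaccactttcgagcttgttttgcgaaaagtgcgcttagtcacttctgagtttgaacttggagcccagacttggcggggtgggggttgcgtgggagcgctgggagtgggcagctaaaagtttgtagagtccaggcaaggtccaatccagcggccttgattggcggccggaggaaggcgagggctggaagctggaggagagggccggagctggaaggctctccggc

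The windows differed in base composition and in the letters they held. Tgfb1 was the most GC-rich of these 5 at 75.2% and had 5 GC boxes, a motif present in 32.9% of 27025 gene promoters of the same length. Tgfb2 was 53.6% GC, with no GC box and 1 Smad element that begins 204 bases before the start, a motif present in 17.1% of promoters. The upstream start of Ltbp1 had a cyclic AMP response element 73 bases before the start, which 1.62% of promoters hold, and its downstream start had 2 Smad elements, at 149 and 98 bases before the start. The Tgfbr2 window held none of the 5 motifs. The androgen receptor motif, present in 16.2% of promoters, and the AP-1 site, present in 6.87%, were in none of the 8 windows. A match or its absence describes these letters in these windows only.

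Of the ligands, Tgfb2 lay higher in every transgenic prostate and Tgfb1 and Tgfb3 did not separate the genotypes. Tgfb2 is the isoform that needs the co-receptor Tgfbr3 for strong binding to the type II receptor. In wild-type replicates 1, 2 and 3, in that order here and below, it was measured at 312.4, 317.6 and 284.5, and in transgenic replicates 1, 2 and 3 at 330.5, 346.5 and 365.8. The lowest transgenic value was 12.9 intensity units above the highest wild-type value. The means were 304.8 ± 17.8 (SD, n = 3) and 347.6 ± 17.7 (SD, n = 3), a log2 change of 0.18 ± 0.08 (SE, as for all changes below). Its adjusted p was 0.429 (limma; unadjusted 0.057), with a 95% interval of the fold from 1.00 to 1.29.

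Tgfb1, the most widely expressed isoform and the one linked to immune cells and fibrosis, was measured at 198.3, 182.1 and 243.9 in the wild-type and at 199.3, 224.5 and 198.4 in the transgenic prostates. Wild-type replicate 3 had the highest value of the 6 and wild-type replicate 2 the lowest, so the transgenic values lay inside the wild-type range. The log2 change was 0.00 ± 0.11 (adjusted p 0.995), with an interval of the fold from 0.83 to 1.21. Tgfb3, an isoform typical of mesenchyme, was at 144.2, 162.8 and 116.0 in the wild-type and at 133.4, 163.3 and 161.5 in the transgenic prostates. Its groups overlapped, with transgenic replicate 1 below wild-type replicates 1 and 2. The log2 change was 0.11 ± 0.13 (adjusted p 0.792), and the interval of the fold, 0.87 to 1.33, was the widest of the 10 on the log2 scale. The differences between the isoforms in their response to the genotype were not tested.

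Ltbp1, which escorts latent TGF-β out of the cell and into the matrix, had the highest log2 change of the 10. It was at 124.7, 138.0 and 125.3 in the wild-type and at 152.8, 142.4 and 171.5 in the transgenic prostates. The groups did not overlap, but the gap between wild-type replicate 2 and transgenic replicate 2 was only 4.40 intensity units. The means of 129.3 ± 7.53 and 155.5 ± 14.7 gave a log2 change of 0.24 ± 0.09 (limma; adjusted p 0.349, unadjusted 0.031) and an interval of the fold from 1.02 to 1.36.

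Of the receptors, Tgfbr2 separated the genotypes and Tgfbr1 did not. Tgfbr2 is the ligand-binding kinase that starts the signal. It was at 172.9, 174.5 and 173.9 in the 3 wild-type prostates and at 197.0, 201.1 and 211.5 in the 3 transgenic prostates. The wild-type mice were nearly identical, with an SD of 0.807, and the gap to the lowest transgenic mouse was 22.5. The means of 173.8 and 203.2 ± 7.44 gave a log2 change of 0.21 ± 0.07, and limma's adjusted p was 0.292 (unadjusted 0.019), with an interval of the fold from 1.03 to 1.29. Only 2.42% of genes had a smaller spread within genotypes than Tgfbr2, and the standard error in limma is larger than that spread alone gives because each gene's variance is drawn towards that of the others. Tgfbr2 stood at rank 1927 of 28944 probe sets by unadjusted p, the best placed of the 10.

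Tgfbr1, the type I receptor kinase that phosphorylates Smad2 and Smad3, was at 455.7, 463.5 and 476.6 in the wild-type and at 485.0, 450.6 and 459.0 in the transgenic prostates. Both the highest and the lowest value of the 6 came from transgenic mice, so the wild-type range lay inside the transgenic one. The log2 change was 0.00 ± 0.07 with an adjusted p of 0.995, and the interval of the fold ran from 0.89 to 1.12. Tgfbr3, also called betaglycan, presents ligand to the signalling receptors. It was at 607.6, 658.5 and 579.7 in the wild-type and at 581.1, 716.0 and 710.4 in the transgenic prostates. Transgenic replicates 2 and 3 lay above every wild-type value and transgenic replicate 1 lay near the lowest of them. The log2 change was 0.11 ± 0.10, with an adjusted p of 0.717.

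Neither receptor-regulated Smad separated the genotypes. Smad3 was at 198.0, 205.6 and 205.4 in the wild-type and at 202.6, 213.5 and 210.3 in the transgenic prostates, a log2 change of 0.04 ± 0.07 (adjusted p 0.880). Only 2.00% of genes had a smaller spread within genotypes. Smad2 was at 278.3, 260.2 and 241.7 in the wild-type and at 290.4, 268.5 and 261.7 in the transgenic prostates. All 3 transgenic values exceeded the wild-type mean of 260.1, yet wild-type replicate 1 lay above transgenic replicates 2 and 3. The log2 change of Smad2 was 0.07 ± 0.08, with an adjusted p of 0.798. The intervals of the fold were 0.92 to 1.20 for Smad2 and 0.92 to 1.15 for Smad3.

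Smad7, the inhibitory Smad that blocks the type I receptor and recruits ubiquitin ligases to it, was at 413.3, 357.6 and 329.9 in the wild-type and at 435.4, 415.5 and 428.3 in the transgenic prostates. The groups did not overlap, by 2.26 intensity units between wild-type replicate 1 and transgenic replicate 2. The wild-type mice were spread more widely than the transgenic mice, with means of 366.9 ± 42.5 and 426.4 ± 10.1. The log2 change was 0.21 ± 0.10, with an adjusted p of 0.426 (limma; unadjusted 0.057) and an interval of the fold from 0.99 to 1.35. Smad4, the common partner and no member of the set, was at 1431, 1309 and 1258 in the wild-type and at 1514, 1527 and 1599 in the transgenic prostates. It too separated the genotypes, with a log2 change of 0.21 ± 0.08 (adjusted p 0.341).

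**Figure D2:**
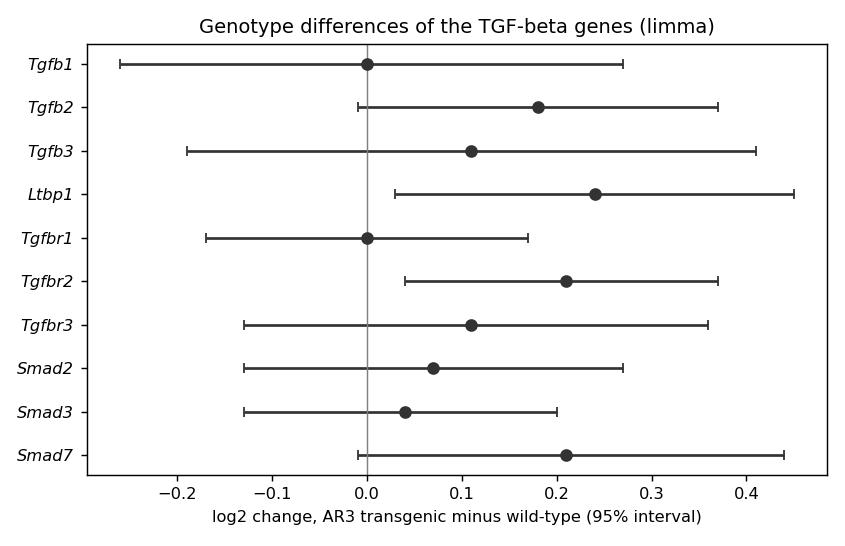
Log2 change, AR3 transgenic minus wild-type, of each TGF-β gene from the limma fit, with points for the estimates and bars for 95% intervals from 3 arrays per genotype. The intervals of Ltbp1 (0.03 to 0.45) and Tgfbr2 (0.04 to 0.37) lie above 0, before adjustment for the number of probe sets, and those of the other 8 genes include 0.

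The mice did not contribute evenly to these patterns. Wild-type replicate 3 gave the lowest value of 5 of the 10 genes, Tgfb2, Tgfb3, Tgfbr3, Smad2 and Smad7, where 16.2% of all genes were lowest. Wild-type replicate 1 gave the lowest value of Ltbp1, Tgfbr2 and Smad3, where 32.3% of all genes were lowest. The highest values were shared by transgenic replicates 1, 2 and 3, with 3 genes each, and Tgfb1 alone was highest in a wild-type prostate. Averaged over the 10 genes and set against the wild-type mean, the level on the log2 scale was 0.02, 0.03 and −0.04 in the 3 wild-type mice, in replicate order, and 0.08, 0.13 and 0.15 in the 3 transgenic mice. After median centring of the arrays, which moved the median change of all genes from 0.01 to −0.03, 7 of the 10 changes were above 0, and those of Tgfbr1 (−0.04), Tgfb1 (−0.035) and Smad3 (−0.001) lay below it.

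Genes with the profile most like those of Tgfb2 and Tgfbr2 were found by Pearson's r over the 6 arrays among 13897 genes brighter than background. For Tgfb2 these were Atp5a1, a subunit of mitochondrial ATP synthase (r = 0.998), the alarmin cytokine Il33 (0.996) and the cilium transport gene Ift80 (0.996). For Tgfbr2 they were the lipase-related gene Pnliprp2 (0.994), the insulin-like growth factor receptor Igf1r (0.994) and Paxip1 (0.993). Over only 6 arrays such values are common: 469 genes had an r above 0.9 with Tgfb2 and 551 with Tgfbr2. Of the 6 genes named, Pnliprp2 passed the limma threshold, with a log2 change of 0.54 (adjusted p 0.021).

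The rest of the pathway was followed in 5 lists of 127 measured genes in all, 2 of which, Smad7 and Ltbp1, are also among the 10. None of the other 125 passed the limma threshold. At an unadjusted p under 0.05 there were 14 higher and 2 lower, where all genes gave 6.91% higher and 5.27% lower, and their median log2 change was 0.10 against 0.01.

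Transcripts listed as induced by TGF-β had the highest median change of the 5 lists, 0.18 over 30 measured genes, 27 of them above 0. The list is mixed, since it also holds Id1, Id2 and Id3 (0.29, 0.30 and 0.16), of which Id1 is a typical BMP target. Whether the listed genes respond to TGF-β in this tissue was not tested. None of the 30 passed the threshold in limma. At an unadjusted p under 0.05, 10 were higher, among them Ltbp1 and Id1, and none was lower. Over all genes 6.91% were higher and 5.27% lower at that p, and 53.9% lay above 0. The sphingosine kinase Sphk1 had means of 91.5 ± 10.7 in wild-type and 131.8 ± 6.65 in transgenic prostates, a log2 change of 0.46 ± 0.09 (adjusted p 0.076). The leucine zipper gene Tsc22d1, named for its induction by TGF-β, had means of 852.6 ± 62.8 in wild-type and 1079 ± 51.8 in transgenic prostates, a log2 change of 0.34 ± 0.09 (adjusted p 0.154). Id1, an inhibitor of differentiation and a typical target of BMP signalling, had a log2 change of 0.29 ± 0.09 (adjusted p 0.217). Each of these 3 had all transgenic values above all wild-type values, as did 9 of the 30 genes, Ltbp1 and Smad7 among them, and 10.5% of all genes. The 3 were named for their small p, so their separation adds nothing to it. Sphk1 passed the threshold in 5 other settings (adjusted p 0.015 to 0.284 over all), Tsc22d1 in 1 (0.024 to 0.464) and Id1 in 1 (0.0459 to 0.487). The direct feedback genes Pmepa1 (0.15) and Skil (−0.02) and the matrix gene Ccn2 (0.15), singled out after their values were seen, had adjusted p of 0.665, 0.959 and 0.606. The log2 changes of the collagens Col1a1, Col1a2 and Col3a1, also singled out afterwards, were 0.45, 0.53 and 0.58, with overlapping groups and adjusted p between 0.342 and 0.369. These 3 are fibroblast markers as well, and Acta2 and Tagln of the same list mark smooth muscle.

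Genes that store or release latent TGF-β had a median change of 0.13 over 24 measured genes. Of these 2 were higher at an unadjusted p under 0.05 and none lower, where 6.91% of all genes were higher and 5.27% lower. Mmp14, a membrane-bound matrix metalloproteinase, was at 282.8, 315.6 and 263.8 in the wild-type and at 393.6, 415.5 and 472.0 in the transgenic prostates. Its groups stood well apart, and its adjusted p of 0.0502 lay just outside the threshold, with a log2 change of 0.55 ± 0.10. 5 other settings of the analysis put it inside, and over all settings its adjusted p ran from 0.0072 to 0.253. The transglutaminase Tgm2, which crosslinks latent complexes to the matrix, had means of 571.4 ± 93.9 in wild-type and 821.9 ± 122 in transgenic prostates (log2 change 0.51 ± 0.15, adjusted p 0.220). The gelatinase Mmp2 had overlapping groups, with a log2 change of 0.42 ± 0.19 (adjusted p 0.439).

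Among 23 receptor partners, scaffolds and extracellular antagonists, with a median change of 0.04, 1 was higher and 1 lower at an unadjusted p under 0.05. At that p 6.91% of all genes were higher and 5.27% lower. The BMP type I receptor Bmpr1b was at 811.2, 868.4 and 993.1 in the wild-type and at 628.5, 651.5 and 576.5 in the transgenic prostates. It lay lower in every transgenic mouse, with a log2 change of −0.51 ± 0.10 (adjusted p 0.060), which 7 other settings put inside the threshold (0.0053 to 0.271 over all settings). Fkbp1a, which binds the type I receptor and keeps it silent, had a log2 change of 0.23 ± 0.08 (adjusted p 0.278). Bambi, a decoy receptor without a kinase, had a log2 change of 0.18 (adjusted p 0.462).

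The other Smads, their cofactors and their ubiquitin ligases, 24 measured genes, had a median change of 0.04 and a range from −0.19 to 0.21. At an unadjusted p under 0.05, 1 gene was higher (Smad4) and 1 lower (Smad9), where 6.91% of all genes were higher and 5.27% lower. Smad9, a Smad of the BMP branch, was at 211.8, 216.8 and 214.1 in the wild-type and at 178.8, 197.4 and 180.6 in the transgenic prostates, a log2 change of −0.19 ± 0.07 (adjusted p 0.354). The ligase Wwp1 had a log2 change of 0.16 (adjusted p 0.486). Other ligands of the superfamily, 28 measured genes, had a median of 0.04, and 11 of them had a mean below 66.9, the lowest background level of the arrays, and 17 below 91.9, the highest. Gdf10, a BMP-like ligand of mesenchyme, was at 258.8, 188.1 and 135.6 in the wild-type and at 271.5, 287.3 and 458.6 in the transgenic prostates. Its log2 change was 0.76 ± 0.25 (adjusted p 0.284). Within each genotype it was highest in wild-type replicate 1 and transgenic replicate 3. The mean levels of the fibroblast and seminal vesicle markers described below were highest in the same mice, and a link between them was not tested. The inhibin subunits Inha (−0.31) and Inhba (0.18) had overlapping groups, with adjusted p of 0.457 and 0.515.

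**Figure D3:**
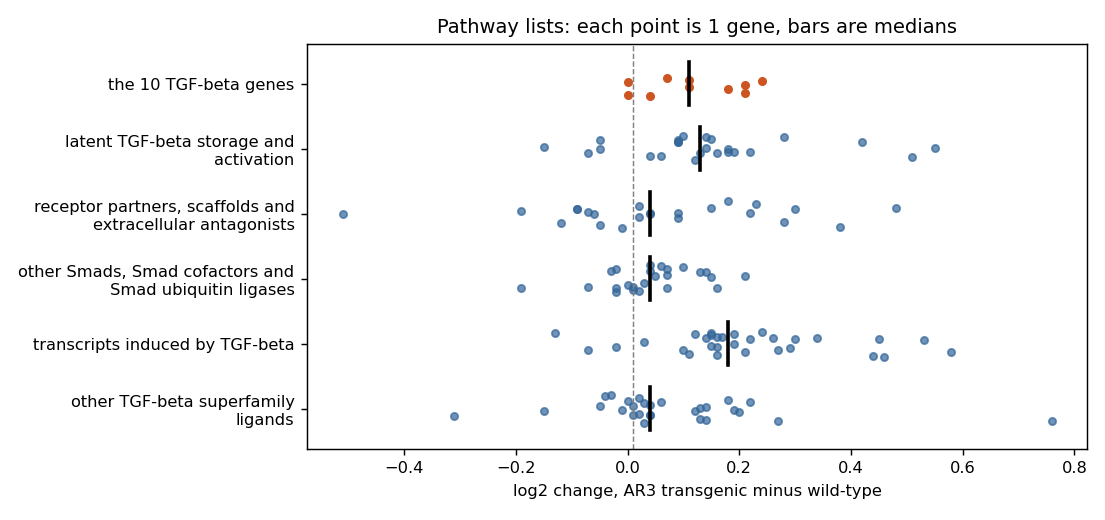
Log2 change, AR3 transgenic minus wild-type, of the 10 TGF-β genes (orange) and of the genes of 5 pathway lists (blue), 1 point per gene, with a black bar at each list's median and a dashed line at the median of all genes (0.01). The list medians run from 0.04 to 0.18, and no gene shown passed the limma threshold.

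The dissected tissue carried the markers of prostate epithelium: the secretory gene Pbsn was at 7927 to 9758 on all arrays, and none of the 12 epithelial markers measured had a mean below background. Other cell types' markers differed between the mice as well. The summed intensity of 10 macrophage and myeloid markers was 1001 to 1085 in wild-type and 1309 to 1427 in transgenic prostates. That of 8 endothelial markers was 878 to 1042 and 1143 to 1210, so the summed ranges did not overlap for either list. Taken singly, only 2 markers of each list lay higher without overlap, where 10.5% of all genes did. They were Ctss and C1qb in the first list and Cdh5 and Cldn5 in the second. In the 2 lists, 1 myeloid and 1 endothelial marker passed the limma threshold, the lysosomal protease Ctss (0.91) and the vascular cadherin Cdh5 (0.93). Over all genes 1.64% passed it in either direction, and 53.9% had a change above 0. The sum of 10 fibroblast markers was 4716 to 6627 and 6180 to 8793, overlapping, with all 10 changes above 0 and none past the threshold. The sum of the epithelial markers was 51945 to 53243 and 46475 to 46812, with 2 of the 12 called lower. The abundant secretory genes Sbp (−0.91), Spink1 (−0.53) and Pbsn (−0.21) carried that lower sum, while 7 of the 12 changes were above 0, among them Epcam (0.19), Cdh1 (0.15) and Krt8 (0.14), and the median was 0.06. The sum of 8 smooth muscle markers was 13730 to 16542 and 12936 to 17429. The sum of 7 seminal vesicle genes ran from 675 to 4767 in wild-type and from 1568 to 8904 in transgenic prostates. Within each genotype it was highest in wild-type replicate 1 and transgenic replicate 3. Only 3 of the 7 changes were above 0, those of Pate4 (3.88), Svs5 (1.67) and Svs4 (1.45), and none of these passed the threshold. The median change was −0.15, and Svs3a (−1.43) was called lower. In whole tissue, more cells of a type and more RNA per cell cannot be told apart. The part of these cell types in the values of Tgfb2, Ltbp1, Tgfbr2, Smad7 and the induced transcripts was not tested.

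**Figure D4:**
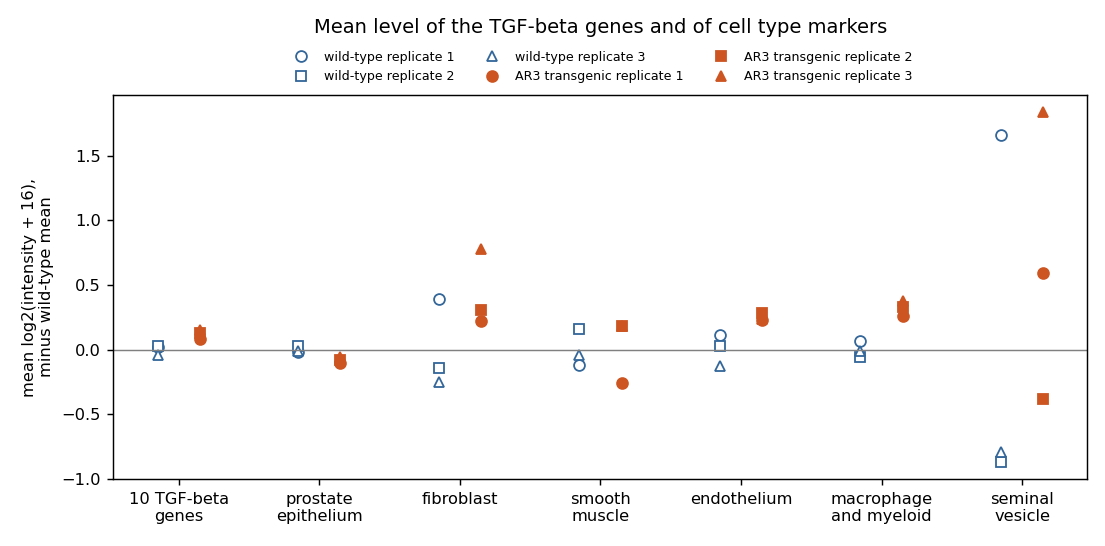
Mean of log2(intensity + 16) over the 10 TGF-β genes and over 6 lists of cell type markers on each array, minus the wild-type mean, with open blue symbols for wild-type and filled orange symbols for AR3 transgenic prostates. The TGF-β genes span −0.04 to 0.15, the fibroblast markers −0.25 to 0.78, and the seminal vesicle genes, which split the mice within each genotype, −0.87 to 1.84.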

How the data were processed

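Total RNA from whole prostates was labelled with a whole-transcript kit for Affymetrix arrays, per the labels' protocols. The deposited values are intensities on a linear scale, 1 per probe set and array, as read from their range. Which summarisation, normalization, software and genome build the authors used is not given in the sources used here. Of 35512 probe sets, 6568 with identifiers below the gene-level range were taken for controls and left out. Of the remaining 28944, 21789 had 1 gene symbol, 1621 several and 5534 none in the platform annotation. The brightest probe set stood for each of 19938 genes.

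Log2(intensity + 16) was tested with limma 3.58.1 (lmFit, eBayes; R 4.3.3), two-sided, without covariates, with Benjamini-Hochberg adjustment over 28944 probe sets. The scripts were tested on simulated data. Median intensity per array was 94.5 to 110.8, and the number of arrays limits the precision. An exact permutation test of 3 against 3 cannot go below 0.1, so none was used. The labels name each sample as a mouse, so p-values rest on the spread between mice. Scan dates and batches were not analysed here. The labels tie no transgenic mouse to a given wild-type mouse, so the numbers were not taken as pairs. Correlations of deviations between same-numbered mice were −0.044, 0.046 and −0.162, which cannot show whether 2 mice shared a litter.

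Members and lists were chosen with earlier results of these data known. Named were all 10 members, the 3 smallest p of each list (members aside), the 3 genes most like Tgfb2 and the best-ranked member, and genes said to be singled out. Alternatives were added constants of 1 and 64, median centring, quantile normalization, array weights, an intensity trend with robust variances, a filter on the dimmest 40%, a replicate block, leaving out each array, and the mean over probe sets; leaving out wild-type replicate 1 and transgenic replicate 3 together was added after seeing the data.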

Additional observations from a re-analysis of the deposited data

How the results depend on the processing

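No member passed the limma threshold under any of 16 settings. The smallest adjusted p were 0.099 for Tgfbr2, 0.101 for Smad7, 0.219 for Ltbp1 and 0.235 for Tgfb2, whose changes stayed above 0 throughout (0.17 to 0.23, 0.14 to 0.30, 0.15 to 0.29 and 0.13 to 0.21). Changes near 0 turned sign: Tgfb1 with median centring (−0.035), quantile normalization (−0.02) and single arrays left out (−0.081 to 0.11), Smad3 with median centring (−0.001), Tgfb3 with array weights (−0.002) and single arrays left out (−0.01 to 0.21), and Tgfbr1 with single arrays left out (−0.031 to 0.02). Array weights called 1202 probe sets against 425, an intensity trend with robust variances 678, the replicate block 250, wild-type replicate 1 and transgenic replicate 3 left out together 237, and single arrays left out 234 to 519 (254, 248 and 234 without wild-type replicate 2, transgenic replicate 2 and transgenic replicate 3). The share of higher probe sets among those called was 71.8%, and ran from 54.3% with median centring to 82.5% without transgenic replicate 3. In place of 0, the storage and activation list had 1 called gene with array weights, an added constant of 64, an intensity trend, quantile normalization and without the dimmest 40%. The receptor partner list had 1 under these and median centring, and 0 to 1 with single arrays left out (1 without wild-type replicate 1). The induced list had 3 with array weights and 1 under an added constant of 64, an intensity trend, quantile normalization, median centring and without the dimmest 40%. The cause of these shifts was not tested. The replicate block called no gene of the members or lists, and the mean over probe sets equals the values given, since each member has 1.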
